A study of Mus musculus and Homo sapiens with 67 samples.

Results

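Cornified envelope genes are described here across pancreatic cancer models treated with an EZH2 inhibitor, an inhibitor of active RAS, or both. The 10 members were SPRR1A, SPRR1B, SPRR2A, SPRR2D, SPRR3, IVL, TGM1, CNFN and PI3, matched by symbol regardless of case, and mouse Sprr2h. They were picked for their levels across the arms of these same tables, so their levels and differences are given as a description, without a test. The human tables listed 9 members among 60564 genes, and the mouse tables listed 8 among 55335, with no gene of the symbol Pi3 or Sprr2a. The samples were the human pancreatic cancer lines PSN1 and SW1990, mouse KPC pancreatic cancer cells, and orthotopic KPC tumours, which grow within the mouse pancreas and whose deposited columns name the line KPC1199, where those of the cells read KPC. Each model had a control arm, given DMSO in cells and vehicle in mice. The other arms received tazemetostat, which inhibits the methyltransferase EZH2, RMC-6236, which inhibits GTP-bound RAS, or the combination of both. Each arm held 3 libraries in cells and 4 in tumours, 52 libraries in all, and 15 labelled libraries of subcutaneous tumours were not analysed here. The labels give no dose or time, no allele of the KPC cells, and no strain or age of the host mice. They do not say whether the cell samples were separate cultures, so the spread between libraries may be technical.

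The cornified envelope is the cross-linked protein shell that squamous cells build beneath their membrane as they mature. Involucrin, encoded by IVL, and the small proline-rich proteins of the SPRR family are its precursors, and transglutaminases, TGM1 among them, join them together. Cornifelin, encoded by CNFN, is a further component, and PI3 encodes elafin, an elastase inhibitor that is itself a transglutaminase substrate. IVL and the SPRR genes lie side by side in the epidermal differentiation complex, together with S100 genes. In mouse epidermis, EZH2 is known to hold genes of this complex back in basal progenitors, and AP-1 factors, which act downstream of RAS and ERK, are known activators of SPRR and involucrin promoters.

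The promoter windows of the mouse genes on which the results turn are printed first, because they share motifs while the transcripts moved in different directions. Each is the 250 bases before the RefSeq start in GRCm38.p6 on chromosome 3, read 5′ to 3′ on the gene's strand. The windows are chr3:92385435-92385684 (plus strand) for Sprr2h, chr3:92432332-92432581 (plus) for Sprr2k, chr3:92316455-92316704 (plus) for Sprr2b, chr3:92485882-92486131 (minus) for Sprr1a, chr3:92438780-92439029 (minus) for Sprr1b, and chr3:92573736-92573985 (minus) for Ivl. Capitals mark AP-1 letters TGANTCA and octamer letters ATTTGCAT on either strand, and TATAAA on the gene's strand.
Sprr2h: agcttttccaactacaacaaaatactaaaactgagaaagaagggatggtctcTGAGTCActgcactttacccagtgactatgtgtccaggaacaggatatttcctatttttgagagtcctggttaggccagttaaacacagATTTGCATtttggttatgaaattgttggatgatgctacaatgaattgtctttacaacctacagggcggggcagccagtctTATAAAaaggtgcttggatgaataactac
Sprr2k: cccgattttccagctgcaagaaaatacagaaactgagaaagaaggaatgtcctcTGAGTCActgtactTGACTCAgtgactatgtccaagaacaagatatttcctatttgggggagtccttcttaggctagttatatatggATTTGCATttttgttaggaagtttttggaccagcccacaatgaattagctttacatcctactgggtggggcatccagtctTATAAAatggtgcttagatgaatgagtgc
Sprr2b: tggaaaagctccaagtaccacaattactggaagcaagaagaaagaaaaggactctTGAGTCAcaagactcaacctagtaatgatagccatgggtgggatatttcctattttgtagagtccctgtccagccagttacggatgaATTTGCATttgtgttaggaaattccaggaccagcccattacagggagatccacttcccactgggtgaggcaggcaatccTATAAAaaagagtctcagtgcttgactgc
Sprr1a: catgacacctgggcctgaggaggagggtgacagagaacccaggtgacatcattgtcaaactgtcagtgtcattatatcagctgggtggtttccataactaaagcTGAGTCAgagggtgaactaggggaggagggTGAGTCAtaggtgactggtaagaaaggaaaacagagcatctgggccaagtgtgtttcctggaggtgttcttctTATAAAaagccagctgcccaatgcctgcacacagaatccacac
Sprr1b: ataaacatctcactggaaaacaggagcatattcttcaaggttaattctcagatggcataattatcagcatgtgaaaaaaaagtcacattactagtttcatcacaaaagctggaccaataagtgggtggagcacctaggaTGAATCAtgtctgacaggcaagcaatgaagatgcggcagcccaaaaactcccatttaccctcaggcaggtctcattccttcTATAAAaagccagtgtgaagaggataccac
Ivl: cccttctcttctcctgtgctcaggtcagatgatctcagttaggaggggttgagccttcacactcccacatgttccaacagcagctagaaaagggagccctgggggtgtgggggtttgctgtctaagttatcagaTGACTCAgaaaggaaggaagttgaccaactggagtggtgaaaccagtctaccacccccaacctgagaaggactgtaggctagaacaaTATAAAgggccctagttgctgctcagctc
Sprr2h, Sprr2k and Sprr2b held the same set of letters at nearly the same distances from the start. The AP-1 letters began at -198 in Sprr2h, at -196 and -182 in Sprr2k and at -195 in Sprr2b. The octamer began at -109 in Sprr2h and Sprr2k and at -108 in Sprr2b, and TATAAA began at -29 in all 3 genes. Sprr1a held AP-1 letters at -146 and -116, Sprr1b at -111 and Ivl at -116, and these genes lacked the octamer in the window. Among 18 windows, of mouse Sprr genes, Ivl, Cnfn and Tgm1, the last with 2 starts and with no window for Sprr2g or Sprr2j-ps, the AP-1 letters were found in 10, the octamer in 7 and TATAAA in 11. Over all 32851 RefSeq windows of that length the shares were 6.75%, 1.60% and 7.59%. The ETS core AGGAA, on either strand, was in 17 of the 18 windows, but also in 60.3% of all windows. The AP-1, octamer and TATAAA matches do not overlap one another, and 2 AGGAA matches in Ivl, at -106 and -102, share a base. A match describes the sequence only.

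**Figure D1:**
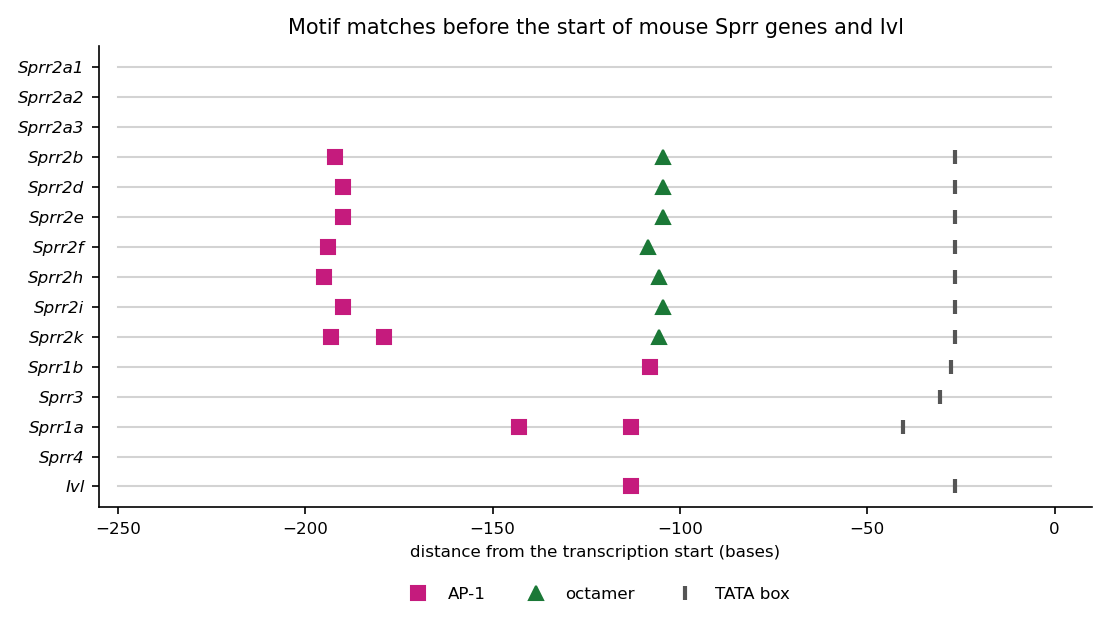
Position of AP-1 (squares), octamer (triangles) and TATAAA (bars) matches in bases from the transcription start, for the mouse Sprr genes and Ivl in their order along chromosome 3. Sprr2b to Sprr2k share the same layout, while Sprr2a1, Sprr2a2, Sprr2a3 and Sprr4 show no match in the window.

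Values are the deposited FPKM, fragment abundances scaled to transcript length and library size, which allow levels of different genes to be compared per length. Differences are on the log2(FPKM + 1) scale with their standard error from limma, which understates changes of low genes, and folds are ratios of arm means. A gene entered the fit with at least 1 FPKM in 3 libraries (cells) or 4 libraries (tumours), and was called at an adjusted p under 0.05. Each cell library held 11489 to 12772 genes of at least 1 FPKM, and each tumour library 12386 to 13414. The lowest correlation of a library with another of its arm was 0.994 in cells and 0.959 in tumours, and no 2 libraries held identical values. All 7 ductal marker genes were above 1 FPKM on average in every model. The squamous basal list, which includes TP63 and KRT14, was expressed with all 7 genes in SW1990 cells, where its sum was 874 to 957 FPKM in controls. In PSN1 and KPC cells none of its 7 genes reached 1 FPKM on average, and in tumours Krt14 alone did. DUSP6, a gene that reports ERK output, fell with RMC-6236 in each model, with differences of -3.43 in PSN1, -4.89 in SW1990, -2.76 in KPC cells and -2.46 in tumours (adjusted p = 1.1e-16, 2.1e-15, 1.9e-14 and 5.5e-05).

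SW1990 expressed the envelope genes most broadly, and they followed 2 patterns. SPRR1B, SPRR1A, SPRR3 and PI3 were highest with tazemetostat and lowest with RMC-6236, whereas IVL, TGM1 and CNFN were higher with RMC-6236 than in controls. Of 9 members, 8 entered the fit. SPRR2D did not, and lay between 0 and 0.166 FPKM.
Among the precursors, SPRR1B was the most abundant per length, at 44.3, 43.8 and 38.9 FPKM in the controls. It stood at 82.3, 84.9 and 81.3 with tazemetostat, at 20.8, 23.0 and 23.2 with RMC-6236, and at 35.6, 31.8 and 33.8 with the combination. No library of any arm overlapped another arm, in the order tazemetostat, control, combination, RMC-6236. The SPRR1B differences from control were 0.95 ± 0.06, -0.89 ± 0.06 and -0.32 ± 0.06 for tazemetostat, RMC-6236 and the combination. With RMC-6236 present, adding tazemetostat gave 0.57 ± 0.06 more than RMC-6236 alone.
SPRR3, a precursor best known from oral and oesophageal epithelium, was much scarcer, at 1.29, 1.37 and 1.37 FPKM in controls. It was 2.94, 3.05 and 3.66 with tazemetostat, 0.730, 0.964 and 0.754 with RMC-6236, and in the combination 1.65, 1.62 and 1.82. Again no arms overlapped, but the combination lay just above control (0.20 ± 0.07) rather than below it as for SPRR1B. SPRR1A was 2.81 ± 0.60 FPKM in controls, 5.02 ± 0.43 with tazemetostat, 2.06 ± 0.12 with RMC-6236, and in the combination 2.68 ± 0.34 (mean ± SD, n = 3). Its tazemetostat libraries lay above all others, while those of control overlapped both the combination and RMC-6236.
SPRR2A departed from its relatives in not moving with tazemetostat beyond the spread. It was 2.05, 1.93 and 2.29 FPKM in controls and 2.003, 2.11 and 2.26 with tazemetostat. With RMC-6236 it was 0.622, 0.569 and 0.371, and with the combination 0.501, 1.20 and 0.967, so that all 6 libraries given RMC-6236 lay below all 6 without it. Human SPRR2 genes are near-identical copies, and how reads were shared among them is not given in the sources used here, so SPRR2A and SPRR2D levels are uncertain.
IVL, the scaffold precursor, was higher in each arm than in the one before it, in the order control, tazemetostat, RMC-6236, combination, without any overlap. Its libraries were 7.91, 7.398 and 7.17 FPKM in controls, 11.1, 10.5 and 10.996 with tazemetostat, 15.4, 16.0 and 15.4 with RMC-6236, and in the combination 20.01, 18.8 and 18.0. The IVL differences from control were 0.48 ± 0.05, 0.97 ± 0.05 and 1.23 ± 0.05. TGM1, the cross-linking enzyme, was 0.143, 0.123 and 0.158 FPKM in controls and 0.225, 0.0748 and 0.179 with tazemetostat. It reached 0.699, 0.810 and 0.710 with RMC-6236, and in the combination 1.20, 1.07 and 1.11, 5.23-fold and 7.97-fold the control mean. Control and tazemetostat overlapped, and the arms with RMC-6236 stood apart from both and from each other. TGM1 entered the fit only through the combination libraries, so its presence there follows from the filter.
CNFN was 1.22 ± 0.20 FPKM in controls, 1.55 ± 0.21 with tazemetostat, 3.05 ± 0.54 with RMC-6236, and in the combination 2.30 ± 0.24. Both arms with RMC-6236 lay above both arms without it and overlapped each other. PI3, the elafin gene, was the most abundant member per length, at 81.5, 75.5 and 77.6 FPKM in controls. It was 169, 175 and 170.1 with tazemetostat, 46.6, 43.9 and 45.4 with RMC-6236, and in the combination 89.3, 93.3 and 89.9, with no overlap between arms. In the combination PI3 was close to its control level (1.16-fold) and 2.004-fold its level with RMC-6236 alone.

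**Figure D2:**
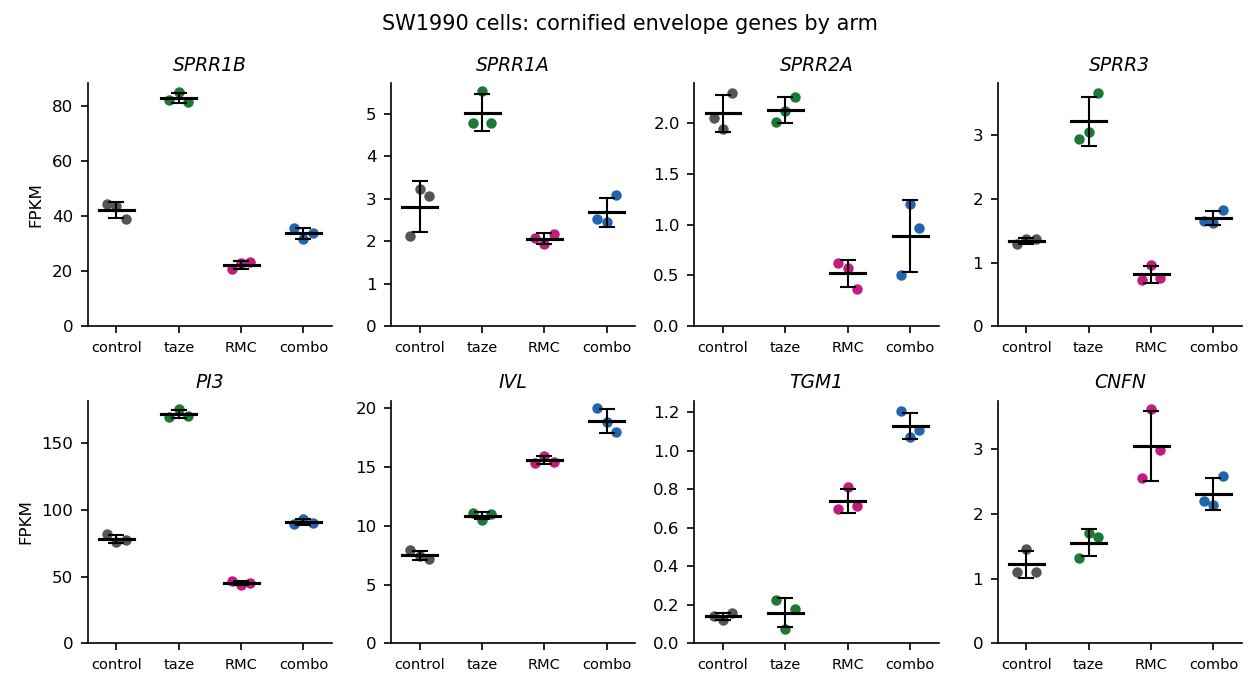
FPKM of 8 cornified envelope genes in SW1990 cells by arm, 3 libraries each (points), with the mean and SD (bars). SPRR1B, SPRR3 and PI3 peak with tazemetostat and are lowest with RMC-6236, and IVL climbs from 7.17 to 20.01 FPKM across the arms.

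With tazemetostat 5 of these 8 genes were called higher and 0 lower, beside 23.1% and 14.4% of the 12913 genes tested (37.5% either way). With RMC-6236 the members split 3 higher and 5 lower (30.7% and 41.7% of all genes, 72.4% either way), and with the combination 5 higher and 2 lower (38.3% and 40.9%, 79.2% either way). Between the combination and RMC-6236 alone, 6 were higher and 1 lower (29.8% and 18.3%, 48% either way). For the interaction, the departure of the combination from the sum of the single-drug differences, 1 was higher and 3 lower (9.03% and 6.19%, 15.2% either way). The members were chosen on these levels, so nothing is read from these counts. The SPRR1A call with RMC-6236 was lost without control replicate 2, control replicate 3 or RMC-6236 replicate 2, where its difference was -0.22, -0.25 and -0.27, against -0.30 with all libraries, and also without the filter or with median ratio rescaling. The interaction calls of CNFN, IVL and TGM1 were lost under several alternatives, as were the calls of SPRR2A and CNFN between the combination and RMC-6236. Without combination replicate 3 or control replicate 1 the combination call of SPRR3 was lost.

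PSN1 cells expressed PI3 and little CNFN, and hardly any SPRR transcript. PI3 was 17.3, 16.5 and 13.9 FPKM in controls, 109, 115 and 112 with tazemetostat, 6.85, 7.69 and 6.98 with RMC-6236, and in the combination 40.8, 44.3 and 47.2. The arms did not overlap, and they stood in the same order as PI3 in SW1990: tazemetostat, combination, control, RMC-6236. The PI3 differences from control were 2.74 ± 0.07, -1.05 ± 0.07 and 1.42 ± 0.07, a 7.02-fold, 0.451-fold and 2.77-fold level. Relative to RMC-6236 alone, the combination held 6.15-fold more PI3. By rank, PI3 stood at the 79.1st percentile of genes tested in controls and at the 98.0th with tazemetostat.
CNFN was 0.364, 0.440 and 0.966 FPKM in controls, 0.774, 0.682 and 1.85 with tazemetostat, 1.26, 0.772 and 1.61 with RMC-6236, and in the combination 2.33, 1.59 and 2.63. Only the combination lay wholly above the controls, and neighbouring arms overlapped throughout. Of the other 7 members, IVL, SPRR1A and SPRR1B were listed at 0 in all 12 libraries, and TGM1 lay between 0.395 and 0.704 FPKM with no arm apart from control.
The remaining 3, SPRR2A, SPRR2D and SPRR3, were listed at 0 in every control and every RMC-6236 library, and above 0 in each tazemetostat library. SPRR2A was 0.322, 0.0859 and 0.230 FPKM with tazemetostat and 0.276, 0.150 and 0.149 with the combination. SPRR2D was 0.121, 0.131 and 0.269 with tazemetostat, and SPRR3 was 0.169, 0.0803 and 0.246. In the combination SPRR2D was 0, 0.0407 and 0, and SPRR3 was 0.112, 0 and 0, so that both were listed at 0 in 2 of its 3 libraries. These levels are far under the filter, no fold can be given against 0, and the read depth behind them is unknown.
Of the 2 members that entered the fit, 1 was called higher with tazemetostat (23.6% of 13358 genes), 1 lower with RMC-6236 (34.6%) and 2 higher with the combination (45.5%). Against RMC-6236 alone 1 was higher in the combination and 0 lower (24.1% and 30.1%), and 0 were called for the interaction (9.8% higher and 13.8% lower, 23.6% either way). Without regard to direction, 46% of genes were called with tazemetostat, 80.4% with RMC-6236, 82.6% with the combination and 54.2% between the combination and RMC-6236. CNFN reached 1 FPKM in no control library, and nothing is read from these counts. The fibroblast list, read in these cultures of a single line, moved as well, from 28.8 to 29.2 FPKM in controls to 113 to 116 with RMC-6236 and 118 to 121 with the combination, and its part in these values was not tested.

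In KPC cells the leading member was Sprr2h, a mouse SPRR2 precursor, which was high with tazemetostat and low whenever RMC-6236 was present. Sprr2h was 21.8, 20.3 and 20.7 FPKM in controls, 106, 104 and 110.1 with tazemetostat, 5.78, 5.43 and 5.88 with RMC-6236, and in the combination 10.5, 12.4 and 10.97. No arms overlapped. The Sprr2h differences from control were 2.29 ± 0.05, -1.71 ± 0.05 and -0.84 ± 0.05, a 5.09-fold, 0.272-fold and 0.538-fold level. The combination was 1.98-fold RMC-6236 alone, so that tazemetostat went with a larger step without RMC-6236 than with it, and the interaction was -1.42 ± 0.07.
Sprr1a, the other abundant precursor, differed in that it was also higher with RMC-6236 than in controls. It was 5.21, 4.80 and 5.73 FPKM in controls, 20.4, 23.1 and 22.3 with tazemetostat, 11.9, 12.6 and 13.1 with RMC-6236, and in the combination 12.9, 12.6 and 13.6. The arms with RMC-6236 overlapped each other, at 2.39-fold and 2.48-fold the control mean, and tazemetostat alone stood above both at 4.18-fold. The interaction of Sprr1a was -1.83 ± 0.08.
Ivl was near 0 in every arm but tazemetostat. Its libraries were 0.0281, 0.128 and 0.0920 FPKM in controls, 1.71, 1.45 and 1.80 with tazemetostat, 0.0273, 0 and 0.176 with RMC-6236, and in the combination 0.0619, 0.0983 and 0.0235. Ivl passed the filter only through the tazemetostat arm. The other 5 members stayed below the filter: Sprr1b reached at most 0.365 FPKM, Cnfn 0.243, Sprr3 0.0445 and Tgm1 0.0263, and Sprr2d 0.209.
All 3 members in the fit were called higher with tazemetostat (18.6% of 12567 genes higher, 44.1% either way). RMC-6236 split them 1 higher and 1 lower (37.9% and 35.8%, 73.7% either way), as did the combination (37.8% and 38.7%, 76.4% either way). Between the combination and RMC-6236 alone 1 was higher (20.3%, 48.8% either way), and for the interaction 3 were lower (13.7%, 25.8% either way). Ivl entered through the tazemetostat arm alone, so its calls with tazemetostat and for the interaction follow from the filter. Nothing is read from these counts. The ductal marker sum was 3386 to 3515 FPKM in controls, 4833 to 4979 with tazemetostat and 2883 to 2965 in the arms with RMC-6236, and its part in the member values was not tested.

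**Figure D3:**
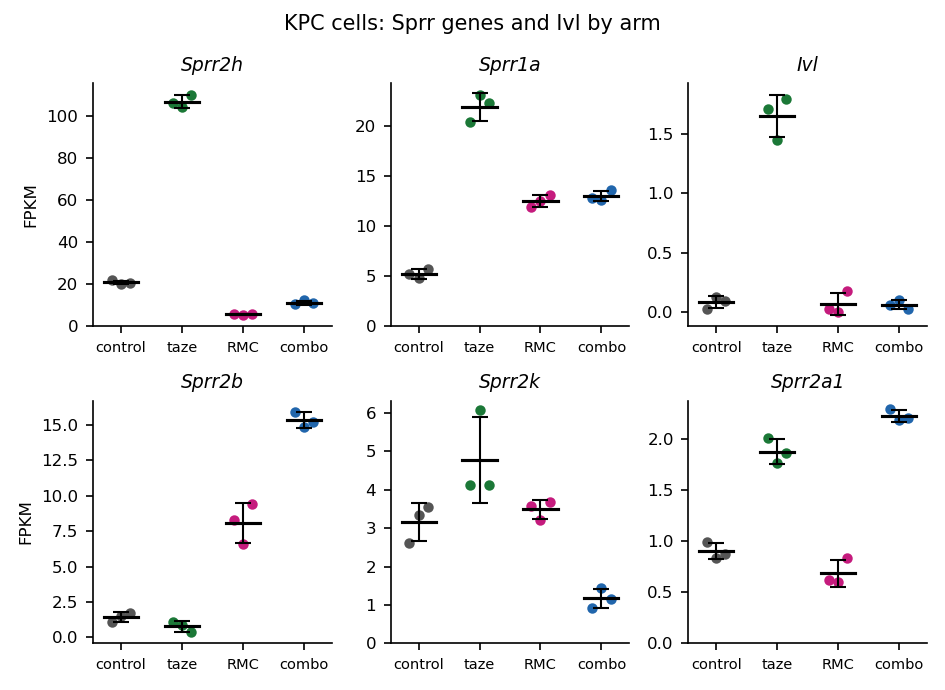
FPKM of Sprr2h, Sprr1a, Ivl and other Sprr genes in KPC cells by arm, 3 libraries each (points), with the mean and SD (bars). Sprr2h is highest with tazemetostat and lowest with RMC-6236, while Sprr2b climbs from 1.46 to 15.4 FPKM between control and combination.

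The Sprr genes outside the member list did not move as a block in KPC cells. Of 11 listed, 5 entered the fit. With tazemetostat 3 were called higher and 1 lower, beside 18.6% and 25.5% of all genes (44.1% either way). The 3 include Sprr2a1 and Sprr2a2, which cannot be read as separate genes, and nothing is read from these counts. Sprr2b, with the same motif layout as Sprr2h, went the other way. It was 1.09, 1.52 and 1.75 FPKM in controls, 1.07, 0.891 and 0.359 with tazemetostat, 8.26, 6.59 and 9.43 with RMC-6236, and in the combination 15.9, 14.9 and 15.2. Its rise with RMC-6236 (1.89 ± 0.16, adjusted p = 5.0e-07) and with the combination (2.74 ± 0.16, adjusted p = 1.2e-08) passed the test. The tazemetostat call of Sprr2b (-0.48 ± 0.16, adjusted p = 0.028) was lost without control replicate 2 (0.077), control replicate 3 (0.10) or tazemetostat replicate 3 (0.092), without the filter (0.070) and with only the arms compared (0.051).
Sprr2k was 2.61, 3.33 and 3.54 FPKM in controls, 4.13, 6.06 and 4.13 with tazemetostat, 3.56, 3.22 and 3.68 with RMC-6236, and in the combination 0.924, 1.43 and 1.15. The fall of Sprr2k with the combination passed the test (-0.94 ± 0.13, adjusted p = 2.5e-05). Its rise with tazemetostat did too (0.46 ± 0.13, adjusted p = 0.012), but not without control replicate 1 (0.36, adjusted p = 0.053). Sprr2h and Sprr2k share no 50-base stretch with another annotated transcript, and 14.1% of such stretches in Sprr2b are shared.
Sprr2a1 and Sprr2a2 rose with tazemetostat by 0.60 ± 0.07 and 0.61 ± 0.07 (adjusted p = 1.4e-05 for each) and with the combination by 0.76 ± 0.07 and 0.82 ± 0.07. These copies overlap in the annotation and share over 96% of their 50-base stretches (96.3% and 96.5%), so they cannot be read as separate genes. Their falls with RMC-6236 (-0.18 and -0.21) were lost without RMC-6236 replicate 1, RMC-6236 replicate 2 or control replicate 1. Sprr2e was 0.562 ± 0.059 FPKM in controls and 1.14 ± 0.11 with tazemetostat, a difference that missed the threshold (adjusted p = 0.052). Sprr2d, Sprr2f and Sprr2i carry the same motif layout as Sprr2h and stayed at or near 0, with arm means of at most 0.213 FPKM.
The order of genes in RefSeq places Sprr1a, the Sprr2 genes and Ivl among 70 protein-coding genes from S100a1 to S100a10, of which 20 entered the fit in KPC cells. This stretch was chosen after the member values were seen. With tazemetostat 14 of the 20 were called higher and 1 lower, and without the members 11 of 17 higher and 1 lower, beside 18.6% higher and 25.5% lower over all genes tested. The 11 include Sprr2a1 and Sprr2a2, which cannot be read as separate genes. They also include Tchh, which passed the filter only through arms given tazemetostat, so nothing is read from these counts. RMC-6236 gave 6 higher and 8 lower (37.9% and 35.8% of all genes), and the combination 11 higher and 4 lower (37.8% and 38.7%). In tumours 18 of the genes entered the fit, of which 3 were higher and 2 lower with RMC-6236 (20.3% and 19.2% of all genes), and 4 higher and 5 lower with the combination (26.7% and 25.7%).

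In orthotopic KPC tumours Sprr1b and Ivl separated the arms with RMC-6236 from those without it, in opposite directions, and tazemetostat alone separated no member from control. Sprr1b, a precursor barely listed in the cultured cells, was 0.377, 0.337, 0.840 and 0.800 FPKM in controls and 0.656, 1.34, 0.794 and 0.955 with tazemetostat. With RMC-6236 it was 3.27, 4.77, 3.61 and 2.74, and with the combination 2.18, 4.64, 1.40 and 3.35. Every tumour given RMC-6236, alone or combined, lay above every tumour without it. The Sprr1b differences from control were 1.53 ± 0.22 for RMC-6236 and 1.23 ± 0.22 for the combination, a 6.11-fold and 4.91-fold level.
Ivl was 1.37, 1.87, 1.91 and 1.32 FPKM in control tumours and 0.867, 1.40, 2.36 and 1.07 with tazemetostat. It was 0.241, 0.277, 0.0315 and 0.0594 with RMC-6236, and in the combination 0.113, 0.0891, 0.528 and 0.0638. All 8 tumours given RMC-6236 were below all 8 others, with differences from control of -1.18 ± 0.17 and -1.14 ± 0.17.
Sprr1a was the most abundant member per length in tumours, and its arms overlapped throughout. It was 25.2, 15.9, 23.6 and 20.2 FPKM in controls, 31.3, 30.2, 40.5 and 23.0 with tazemetostat, 22.4, 32.7, 16.2 and 20.5 with RMC-6236, and in the combination 26.0, 24.4, 25.6 and 11.6. Cnfn was 0.877 ± 0.56 FPKM in controls, 0.838 ± 0.40 with tazemetostat, 1.44 ± 0.74 with RMC-6236, and in the combination 0.327 ± 0.12 (n = 4). The combination lay below RMC-6236 (-0.82 ± 0.24), and the call behind this was lost when any single combination tumour, RMC-6236 replicate 1, 2 or 3, control replicate 1, or tazemetostat replicate 1, 2 or 3 was left out.
Sprr2h, the leading gene of the cultured cells, lay between 0.0614 and 0.902 FPKM in tumours and did not enter the fit. Tgm1 lay between 0.308 and 1.17 FPKM and also failed the filter, and its reads cannot be told apart from the antisense gene Gm49067 if strand was not used in counting. Sprr2d and Sprr3 were at most 0.0715 and 0.121 FPKM.
Sprr2k, outside the member list, was the most abundant Sprr gene per length in tumours given RMC-6236. It was 20.3, 11.1, 12.4 and 17.6 FPKM in controls, 12.1, 13.8, 34.7 and 19.1 with tazemetostat, 68.3, 139, 36.0 and 37.7 with RMC-6236, and in the combination 51.7, 61.2, 24.7 and 42.2. Both arms with RMC-6236 lay above all controls, by 1.94 ± 0.43 (adjusted p = 0.0028) and 1.45 ± 0.43 (adjusted p = 0.011).
Of the 4 members in the fit, 0 were called with tazemetostat, where 0% of 13545 genes were called by limma and 1023 had an unadjusted p under 0.05. With RMC-6236 1 was higher and 1 lower (20.3% and 19.2% of genes, 39.4% either way), as with the combination (26.7% and 25.7%, 52.4% either way). Between the combination and RMC-6236 alone 0 were higher and 1 lower (5.16% and 2.97%, 8.13% either way), and for the interaction 0 were called in either direction (1.49% higher and 0.369% lower, 1.86% either way). Sprr1b reached 1 FPKM in no control, and Ivl in no tumour given RMC-6236, so nothing is read from these counts.
These are whole-tumour RNA, in which fewer cells of a type and less RNA per cell cannot be told apart. Several marker sums differed between the arms beside the tumour results above. In both arms with RMC-6236 these were the ductal, fibroblast, macrophage and suprabasal sums. In the combination arm they were also the acinar, neutrophil, endothelial and T cell sums. The suprabasal sum, over 7 genes, was 9.03 to 11.2 FPKM in controls and 7.296 to 13.04 with tazemetostat. It was 5.83 to 7.33 with RMC-6236 and 3.58 to 4.65 with the combination. T cell genes, 4 in all, summed to 0.0381 to 0.197 in controls and 0 to 0.177 with tazemetostat. Their sum was 0.189 to 0.447 with RMC-6236 and 0.851 to 1.51 with the combination. The ductal sum, over 7 genes, was 3174 to 3962 FPKM in controls, 2834 to 5269 with tazemetostat, 1481 to 2057 with RMC-6236 and 862 to 1440 with the combination. The fibroblast sum, over 6 genes, was 791 to 1096 in controls, 542 to 1241 with tazemetostat, 2875 to 3827 with RMC-6236 and 3165 to 3707 with the combination. For macrophage genes, 5 in all, the sum was 331 to 438 in controls and 319 to 486 with tazemetostat, and 949 to 1326 and 1225 to 1671 in the arms with RMC-6236. Acinar genes, 6 in all, summed to 11.8 to 41.4 in controls, 6.71 to 269 with tazemetostat, 5.25 to 82.5 with RMC-6236, where 0 of the 6 were called, and 70.5 to 2578 with the combination, where 6 were called higher. Endothelial genes, 4 in all, summed to 6.41 to 11.8 in controls, 7.49 to 10.3 with tazemetostat, 8.22 to 9.45 with RMC-6236, and 15.1 to 23.99 in the combination. Krt14, a basal keratin, was 16.5 ± 6.8 FPKM in controls and 30.2 ± 9.8 with RMC-6236, a difference that was not called. Its differences from control with the combination and with tazemetostat (0.55 and -0.13) were not called either. The part of these shifts in the Sprr1b, Ivl, Cnfn and Sprr2k values was not tested.

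**Figure D4:**
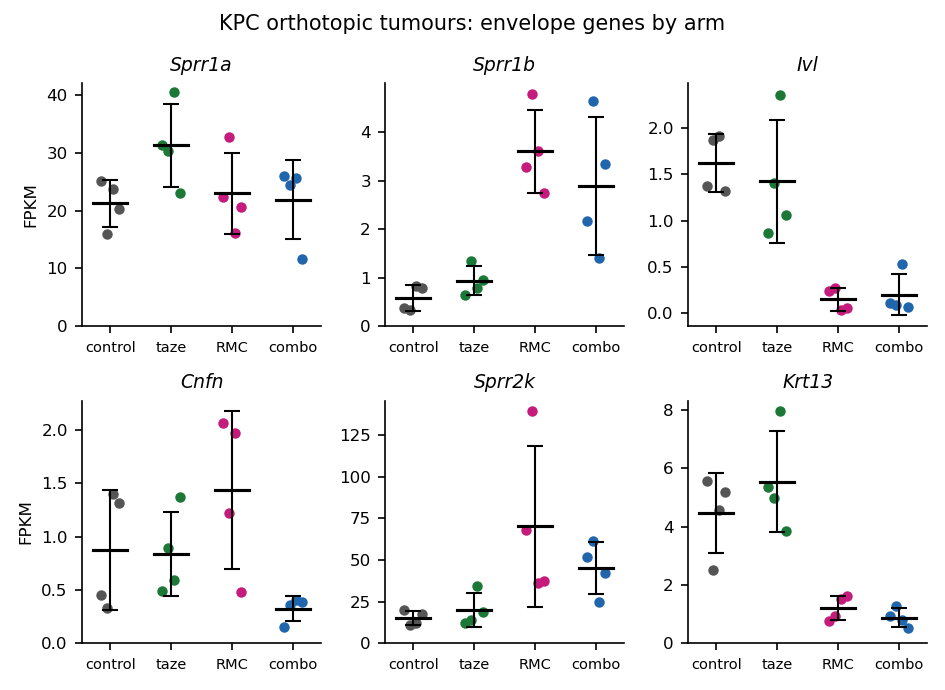
FPKM of Sprr1a, Sprr1b, Ivl, Cnfn, Sprr2k and Krt13 in orthotopic KPC tumours by arm, 4 tumours each (points), with the mean and SD (bars). Sprr1b and Sprr2k are higher and Ivl and Krt13 lower in both arms with RMC-6236, and Sprr1a overlaps in all arms.

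Set side by side, the members did not share a single response across models. IVL turned direction: with RMC-6236 it was 0.97 ± 0.05 above control in SW1990 cells and -1.18 ± 0.17 from control in KPC tumours. In KPC cells its difference was -0.02 ± 0.09, but a control mean of 0.0828 FPKM left no room for a fall. No IVL transcript was listed in PSN1. SPRR1B turned the other way, from -0.89 ± 0.06 in SW1990 to 1.53 ± 0.22 in KPC tumours with RMC-6236. SPRR1A was lower on average with RMC-6236 in SW1990 (-0.30 ± 0.10) and higher in KPC cells (1.12 ± 0.06). In SW1990, however, its control and RMC-6236 libraries overlapped, and the call was lost under several alternatives. PI3, measured only in the human lines, had the same order of arms in both. With tazemetostat alone, the members in the fit in cells ranged from 0.02 ± 0.11 (SPRR2A in SW1990) to 2.74 ± 0.07 (PI3 in PSN1). Each contrast shares its control libraries with the others of that model, and the differences between models were not tested.

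**Figure D5:**
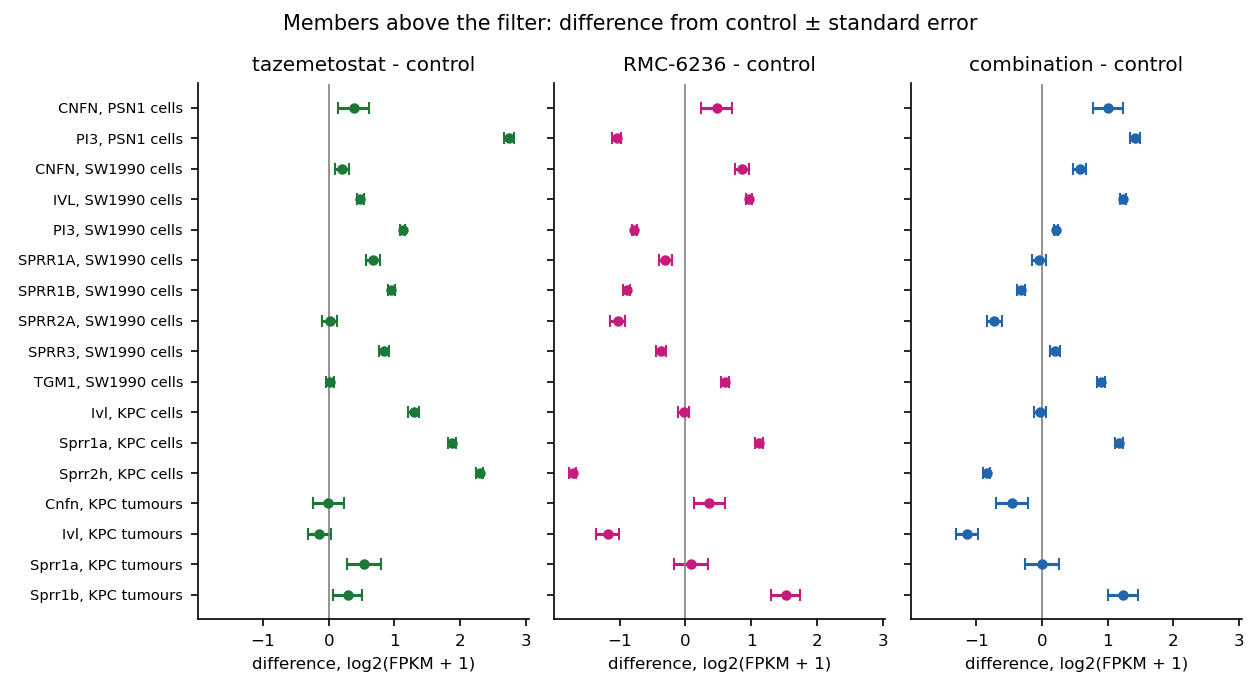
Difference from control on the log2(FPKM + 1) scale, with its standard error, for each member that entered the fit, by model and treatment. PI3 and Sprr2h lie right of 0 with tazemetostat and left of 0 with RMC-6236, and IVL lies right of 0 with RMC-6236 in SW1990 and left of it in KPC tumours.

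Other genes of the envelope and of late squamous maturation formed a list of desmosomal, S100, protease, inhibitor and keratin genes. In the human lines more of them were called upward than downward. In PSN1, however, SERPINB3 and SERPINB4 were listed at 0 in all controls, and PPL, CASP14 and S100A8 were under 1 FPKM there. Such genes passed the filter only through treated arms and could hardly be called lower. Nothing is therefore read from the counts, or from the adjusted p-values of SERPINB4, S100A8 and PPL given below. The shares of all genes called stand beside the PSN1 counts and are given above for the other models. In PSN1, 21 of 78 entered the fit. With tazemetostat 15 rose and 2 fell, beside 23.6% and 22.5% of all genes (median difference 0.34, against 0.00 over all genes tested). With RMC-6236 13 rose and 4 fell, beside 45.8% and 34.6% (0.21 against 0.08). With the combination 19 rose and 1 fell, beside 45.5% and 37.1% (0.89 against 0.07). With tazemetostat S100A9 and S100A8, calcium-binding alarmin subunits, rose by 2.68 ± 0.06 and 2.03 ± 0.12 (adjusted p = 3.7e-11 and 8.6e-08). SLPI, a relative of elafin that also inhibits elastase, rose by 2.05 ± 0.08 (adjusted p = 1.5e-09), and SERPINB4 by 1.86 ± 0.08 (adjusted p = 1.6e-09). With RMC-6236 the largest change was in PPL, the envelope plakin periplakin, which rose by 3.57 ± 0.05 (adjusted p = 8.0e-15), while S100A9 fell by 0.81 on the log2 scale (adjusted p = 1.8e-07).
In SW1990, 36 of 78 entered, and 18 rose and 7 fell with tazemetostat (median 0.13 against 0.04). RMC-6236 raised 23 and lowered 4 (0.25 against -0.06), and the combination raised 26 and lowered 6 (0.60 against -0.02). KRT13 and KRT4, keratins of the suprabasal layers of mucosal squamous epithelium, followed the IVL pattern. KRT13 was 5.25 ± 0.22 FPKM in controls, 11.2 ± 0.37 with tazemetostat, 31.9 ± 0.75 with RMC-6236, and in the combination 47.0 ± 0.95. KRT4 was 1.77 ± 0.37, 4.27 ± 0.25, 11.2 ± 0.06 and 27.6 ± 0.85 in the same order. LY6D, a surface protein of squamous cells, rose by 2.80 ± 0.04 with RMC-6236 (adjusted p = 1.2e-14). SERPINB3, the squamous cell carcinoma antigen, rose by 2.101 ± 0.10 and CASP14, the caspase of terminal keratinocyte differentiation, by 1.40 ± 0.08 with tazemetostat (adjusted p = 1.1e-08 and 4.2e-08). The squamous basal sum was 758 to 770 FPKM with tazemetostat, 863 to 893 with RMC-6236 and 570 to 581 with the combination, against the control range given above. With RMC-6236 4 of its 7 genes were called higher and 3 lower, beside 30.7% and 41.7% of all genes (72.4% either way). KRT6A was 439 ± 18 FPKM in controls and 122 ± 4.2 with RMC-6236, while KRT5 was 257 ± 14 and 412 ± 3.8, and KRT17 was 198 ± 12 and 328 ± 6.6.
In KPC cells, 18 of 70 entered, with 11 higher and 3 lower with tazemetostat (median 0.30 against -0.04), 8 and 8 with RMC-6236 (0.06 against 0.02) and 9 and 5 with the combination (0.14 against 0.00). Krt13 rose with tazemetostat by 1.61 ± 0.05 (adjusted p = 2.4e-10) and fell with RMC-6236 by 2.12 (adjusted p = 8.7e-13), the direction of Sprr2h in both. Tchh, encoding trichohyalin, and Scel, encoding sciellin, rose with tazemetostat by 0.72 ± 0.07 and 0.70 ± 0.08 (adjusted p = 4.5e-06 and 2.3e-05). Tchh means were 0.125 FPKM in controls, 0.853 with tazemetostat and 1.44 with the combination. Tchh passed the filter only through arms given tazemetostat, so nothing is read from its adjusted p. Krt4 moved against Krt13, with a rise of 1.40 ± 0.10 with RMC-6236 (adjusted p = 3.3e-08).
In tumours, 25 of 70 entered, with 0 called with tazemetostat, 2 higher and 4 lower with RMC-6236 (median -0.08 against 0.01), and 5 higher and 9 lower with the combination (-0.20 against 0.00). Slpi rose with RMC-6236 by 1.38 ± 0.24 (adjusted p = 0.00046), and Krt13 and Scel fell, with differences of -1.28 ± 0.22 and -1.07 ± 0.17 (adjusted p = 0.00039 and 0.00027). S100a9 and S100a8 rose with the combination by 2.51 ± 0.58 and 2.42 ± 0.47 (adjusted p = 0.0026 and 0.00070). The neutrophil sum, which holds these S100 genes, was 6.74 to 28.2 FPKM in controls and 35.8 to 190.4 with the combination, and its part was not tested.

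Regulators of squamous differentiation, 44 transcription factors and signalling genes known to act on these promoters or on the lineage, were called in both directions in each model. In PSN1, 17 of 29 rose and 8 fell with either drug alone, and 18 rose and 10 fell with the combination. That is 86.2%, 86.2% and 96.6% of the list called with tazemetostat, RMC-6236 and both, beside 46%, 80.4% and 82.6% of all genes, with median differences of 0.17, 0.21 and 0.49. FOSL1, the AP-1 subunit FRA1, fell with RMC-6236 by 3.94 (adjusted p = 1.6e-11), while ELF3, an epithelial ETS factor, rose by 2.78 ± 0.03 (adjusted p = 1.3e-15). With tazemetostat FOSB and FOS fell (-1.31 ± 0.05 and -1.20 ± 0.02), and EHF, another epithelial ETS factor, rose by 1.23 ± 0.07 (adjusted p = 9.1e-10, 3.5e-12 and 1.5e-08). EHF was 0.897, 0.813 and 0.686 FPKM in controls and passed the filter only through treated arms, so nothing is read from its adjusted p.
In SW1990, 13 of 37 rose and 14 fell with tazemetostat, and 22 rose and 12 fell with RMC-6236 and with the combination. The shares called were 73%, 91.9% and 91.9%, beside 37.5%, 72.4% and 79.2% of all genes, with medians of 0.04, 0.27 and 0.38. FOSL1 fell with RMC-6236 by 4.13 (adjusted p = 1.2e-14), and ELF3 rose by 1.90 ± 0.04 (adjusted p = 1.6e-13). TP63, the master factor of basal squamous cells, fell with tazemetostat by 1.18 (adjusted p = 9.4e-09), and it was lower with the combination than with RMC-6236 alone (-1.76 ± 0.06, adjusted p = 1.3e-10). GRHL3, a factor of the outer epidermal layers, was higher with the combination than with RMC-6236 alone by 1.25 ± 0.07 (adjusted p = 1.2e-08).
For KPC cells, 14 of 29 rose and 6 fell with tazemetostat, and 17 rose and 9 fell with RMC-6236. The shares called were 69% and 89.7%, beside 44.1% and 73.7% of all genes, with medians of 0.10 and 0.19. Fosl1 was 29.2 ± 3.3 FPKM in controls, 43.4 ± 1.9 with tazemetostat, 11.5 ± 0.66 with RMC-6236, and in the combination 12.5 ± 1.1. It rose with tazemetostat (0.56 ± 0.08, adjusted p = 0.00011) and fell with RMC-6236 (-1.27 ± 0.08, adjusted p = 1.3e-08). Jun and Fosl2, other AP-1 subunits, rose with RMC-6236 by 1.997 ± 0.05 and 1.67 ± 0.03 (adjusted p = 8.7e-13 and 4.0e-13). Cebpa, a factor of suprabasal cells, rose with tazemetostat by 0.95 ± 0.10 (adjusted p = 1.1e-05).
In tumours, 0 of 32 were called with tazemetostat, 11 rose and 9 fell with RMC-6236, and 12 rose and 12 fell with the combination. The latter are 62.5% and 75% of the list, beside 39.4% and 52.4% of all genes, with medians of -0.10 and -0.04. Fosl1 fell with RMC-6236 by 1.61 (adjusted p = 0.00021), and Hopx rose by 1.37 ± 0.18 (adjusted p = 4.8e-05). Klf5 fell with the combination by 1.55 (adjusted p = 2.7e-06). EZH2 transcript, the target of tazemetostat, does not report inhibition of the enzyme: with tazemetostat it changed by -0.04 ± 0.05 in PSN1, 0.41 ± 0.07 in SW1990 (adjusted p = 0.00030), -0.07 ± 0.05 in KPC cells and 0.25 ± 0.12 in tumours.

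The genes whose levels followed the mean of the members most closely were found by Pearson correlation over all libraries of a model, as a description over 12 or 16 libraries that share treatment arms. Members moved in different directions in SW1990 and in tumours, so the mean mixes their patterns there. In KPC cells the mean includes Ivl, which passed the filter only through the tazemetostat arm. In PSN1, where the mean held PI3 and CNFN, the closest genes were TNIP1 (0.991), IGFBP2, LYZ, AZGP1 and PTPN3 (0.987). In SW1990 they were RPS6KA2 (0.986), SH3PXD2B, C14orf132, RAB31 and MUC5AC (0.983). Krt19, a ductal keratin, led in KPC cells (0.996), followed by Cldn18, a tight junction gene, Tlcd4, Pear1 and Pde4dip (0.989). Krt19 was 1221 ± 25 FPKM in controls, 2136 ± 24 with tazemetostat, 1179 ± 7.4 with RMC-6236, and in the combination 1310 ± 15. In tumours the highest values were lower, from Faap20 (0.853) to Acap1 (0.721), with Srgap3, Fez2 and Sema4f between them.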

How the data were processed

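RNA was sequenced from stranded mRNA libraries, per the labels' protocols. The authors deposited one FPKM table per model, with FastQC 0.11.2, STAR 2.5.3a and StringTie 1.3.1c named in the submitters' processing notes, which list the build hg38 for every sample. The mouse build and the use of strand in counting are not given in the sources used here. FPKM keep no counts, and no whole-read steps were found in low values, so the depth per library is unknown. Arms were taken from sample titles. For each table, limma 3.58.1 in R 4.3.3 was fitted to log2(FPKM + 1) over all 4 arms, with trend and robust settings, for genes with at least 1 FPKM in 3 (cells) or 4 (tumours) libraries. P-values were two-sided and adjusted by Benjamini-Hochberg over all genes tested, with a threshold of 0.05. The fit was tested on simulated data. Members and gene lists were chosen with earlier results of these data known. Named genes were all members, every other Sprr gene in the fit, up to 4 called genes with the largest difference per contrast from each list, of which the text gives a part, and 5 genes of like pattern per table. FOSL1, DUSP6 and EZH2 were added as checks. Alternatives were a pseudocount of 0.1, no filter, median ratio rescaling, limma without trend and robust, only the arms compared, a replicate block, and leaving out each library. Promoters came from RefSeq (GRCm38.p6), transcripts and overlaps from GENCODE M21. Human promoters and all proteins were not used here.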

Additional observations from a re-analysis of the deposited data

Results flagged for a closer look

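Dixon's test was applied to each member or other Sprr gene in the fit, in each tumour arm of 4, in 28 groups, and it marked 3, where chance marks about 1 in 20. All 3 were in the combination arm. Ivl was 0.528 FPKM in combination replicate 3, far from the other 3 tumours (0.0638 to 0.113). Sprr1a was 11.6 FPKM in combination replicate 4, below the other 3 (24.4 to 26.0). Cnfn was 0.152 FPKM in combination replicate 1, below the other 3 (0.365 to 0.404). The 3 values came from 3 different tumours. Sprr2k went opposite ways with the combination in the 2 KPC models, with a log2 difference from control of -0.94 in cells and 1.45 in tumours. In each model every combination library lay on its side of every control, and the difference between the models was not tested.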

How the results depend on the processing

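No called difference of a single gene reversed its direction under any alternative tried. Of 2345 values of single genes under the alternatives, 2233 kept their side of the threshold, 86 lost the call and 26 gained one. Direction was compared only for differences called in the main fit, so an uncalled one may have changed sign. Counts of calls moved by more than 1.5 times as follows. Without the filter, members called in PSN1 went from 1 to 4 with tazemetostat, from 1 to 2 between the combination and RMC-6236, and from 0 to 1 for the interaction, and in SW1990 from 4 to 1 for the interaction. Other envelope genes without the filter went from 20 to 36 with the combination and from 18 to 31 between the combination and RMC-6236 in PSN1, and from 14 to 22 with the combination in KPC cells. In tumours without the filter, other Sprr genes went from 1 to 2 with the combination, and regulators from 2 to 4 between the combination and RMC-6236. With a pseudocount of 0.1, other envelope genes called for the interaction went from 10 to 6 in KPC cells and from 11 to 7 in SW1990. Fitting only the arms compared gave 1 other Sprr gene instead of 3 for RMC-6236 in KPC cells, 2 members instead of 1 between the combination and RMC-6236 in PSN1, and, for that contrast in tumours, 0 members instead of 1 and 2 other envelope genes instead of 4. Median ratio rescaling also left 0 members there. The cause of these moves was not tested, beyond the larger number of genes that enter without the filter.

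Leaving out 1 library at a time gave 1 to 3 other Sprr genes with RMC-6236 and 6 to 8 other envelope genes for the interaction in KPC cells. For members it gave 1 to 3 for the interaction in SW1990, and in PSN1 1 to 2 with RMC-6236, 1 to 2 between the combination and RMC-6236, and 0 to 1 for the interaction. In tumours it gave 0 to 1 members and 2 to 6 other envelope genes between the combination and RMC-6236, and 0 to 1 other envelope genes and 1 to 2 regulators for the interaction.

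Replicate numbers were not taken to pair samples, since same-numbered libraries did not deviate together (correlations of -0.051 to 0.161 in PSN1, -0.163 to 0.391 in SW1990, for KPC cells -0.095 to 0.133, for tumours -0.404 to 0.344). A library correlated best with its own number in 5, 4 and 5 of 12 libraries in the cell tables and 1 of 16 in tumours. With the replicate block, members called went from 1 to 2 with tazemetostat, with RMC-6236 and between the combination and RMC-6236 in PSN1, and from 1 to 0 between the combination and RMC-6236 in tumours. The unknown depth limits all values below 1 FPKM, such as TGM1 in SW1990 controls and Ivl in KPC cells.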

Other observations

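KRT13 and Krt13, the suprabasal mucosal keratin, moved with RMC-6236 in opposite directions in SW1990 cells and in the KPC models. In PSN1, KRT13 was hardly listed in any arm, with at most 0.0253 FPKM in any library. The log2 difference from control was 2.40 ± 0.04 in SW1990 cells, -2.12 ± 0.05 in KPC cells and -1.28 ± 0.22 in KPC tumours, and these differences between models were not tested. The suprabasal marker sum, over 7 genes that include this keratin, was 11.3 to 12.3 FPKM in SW1990 controls and 79.1 to 81.6 with the combination. In KPC cells the same sum was 11.02 to 11.7 in controls, 29.9 to 32.0 with tazemetostat and 5.07 to 5.61 with the combination. T cell markers, 4 in all, were listed at 0 in every SW1990 and KPC cell library and summed to at most 1.51 FPKM in tumours.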
